A study of Mus musculus with 5 samples.

Results

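Levels of 10 smooth muscle contractile and cytoskeletal genes were followed in visceral adipose tissue of C57BL/6 mice, all male, of a common inbred strain. The genes were chosen by name: Myh11, Acta2, Tagln, Cnn1, Actg2, Lmod1, Des, Mylk, Smtn and Synpo2. They are 10 of the 78334 gene identifiers in the deposited table, and all 10 were among the 24779 genes with enough counts to be tested. Control is 1 library of a standard chow diet with vehicle. Obesity is 2 libraries of a high-fat diet, 60% of calories as fat, fed for 8 weeks before vehicle. Resveratrol is 2 libraries of animals fed likewise and then dosed with resveratrol, a polyphenol found in grapes, at 2.25 mg/kg. Vehicle and resveratrol went in daily through a gastric tube for 28 days. Per the labels, the mice were 8 weeks old when the diet began and 16 weeks old when treatment began. Whether each library is a mouse of its own is not stated in the labels. The p-values therefore describe the spread between these libraries, which may be technical. Levels are given as CPM, a gene's reads scaled to a common library size, after TMM scaling, which corrects for differences in library composition.

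Smooth muscle cells contract when myosin filaments, built on the heavy chain Myh11, pull on filaments of smooth muscle actin. Calcium starts the process through myosin light chain kinase, and a phosphatase ends it. In fat these cells line the blood vessels, and they also form the muscular walls of hollow organs such as the gut, the bladder and the ducts of the male reproductive tract. Many of the genes are controlled by serum response factor with its cofactor myocardin, which act through a short DNA motif called the CArG box.

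The libraries held 19540961 to 27026597 counts. They did not carry the same tissue transcripts. The 15 adipocyte markers summed to 44748 and 53077 CPM in obesity libraries 1 and 2 and to 51412 CPM in resveratrol library 2, but to 10459 CPM in resveratrol library 1, and to 958 CPM in control. The control library, labelled as visceral fat like the others, thus held the adipocyte markers at a low level. In bulk tissue, fewer cells of a type and less RNA per cell cannot be told apart.

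All 10 genes had their highest level in resveratrol library 1, where 21.2% of all tested genes had theirs. In 8 of the 10 that level, with 0.5 CPM added to each value, was at least 4 times the next highest library, a gap seen in 2.17% of tested genes. The 10 genes together took 5.67% of all counts in resveratrol library 1, 0.125% in resveratrol library 2, 0.155% and 0.120% in the obesity libraries and 0.280% in the control library. Resveratrol library 2 lay within the range of the obesity pair for 7 of the 10 genes. The matching share of all tested genes was not counted, so this does not set the 10 apart from other genes.

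**Figure D1:**
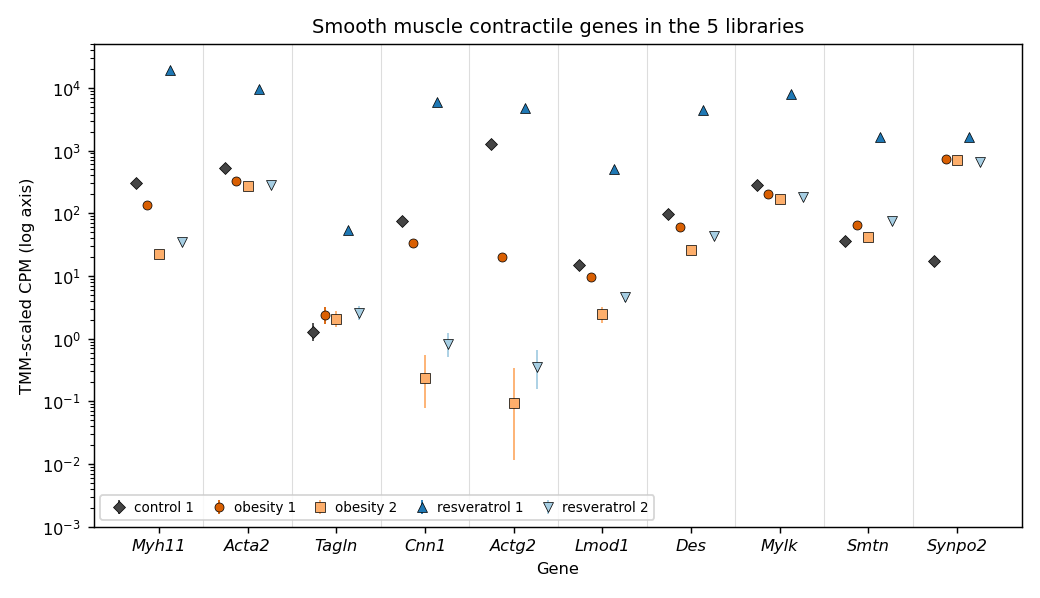
TMM-scaled CPM of each gene (log axis) in the control library, the 2 obesity libraries and the 2 resveratrol libraries; points are libraries and bars are exact 95% Poisson intervals, which cover counting error only. Resveratrol library 1 is the highest point for all 10 genes, from 53.3 CPM for Tagln to 19257 CPM for Myh11.

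The thick filament genes showed the gap between the resveratrol libraries clearly. Myh11 (ENSMUSG00000018830), the smooth muscle myosin heavy chain, was at 299 CPM in control, then 137 and 22.6 CPM in the obesity pair, and 19257 and 34.8 CPM in the resveratrol pair, with library 1 first in each pair here and below. Resveratrol library 1 was thus far above the rest, and resveratrol library 2 lay between the obesity libraries. The ratio of resveratrol library 1 to resveratrol library 2 was 553 (exact 95% interval 518 to 591, counting error only). Mylk (ENSMUSG00000022836), the kinase that switches the myosin light chain on, was at 279 CPM in control, then 204 and 166 CPM in obesity, and 8010 and 180 CPM in the resveratrol libraries. Outside resveratrol library 1 its levels stayed within a narrow band, unlike those of Myh11.

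The smooth muscle actins differed from each other in the libraries rich in fat markers. Acta2 (ENSMUSG00000035783), the actin of vascular smooth muscle and myofibroblasts, was at 529 CPM in control, then 323 and 268 CPM in obesity, and 9423 and 280 CPM in the resveratrol libraries. Actg2 (ENSMUSG00000059430), the actin best known from the muscle of hollow organs, was at 1284 CPM in control, then 20.2 and 0.0952 CPM in obesity, and 4810 and 0.350 CPM in the resveratrol libraries. Acta2 was therefore well detected in all 5 libraries, whereas Actg2 rested on 2 counts in obesity library 2 and 9 counts in resveratrol library 2. The ratio of obesity library 1 to obesity library 2 was 213 for Actg2 (exact 95% interval 58.5 to 1762) and 1.20 for Acta2 (1.16 to 1.25). The actin transcripts are similar. Between the longest Acta2 and Actg2 transcripts of GENCODE release M21 the longest run of identical bases was 29. Acta2 shared runs of 56 bases with Actg1 and 47 with Actb, the cytoplasmic actins, and Actg2 shared runs of 26 with each. Whether reads were assigned to the wrong actin was not tested.

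RefSeq promoter windows on build GRCm38.p6, from 250 bases before to 50 bases after a start site, were at hand for 7 of the 10 genes (Acta2, Cnn1, Lmod1, Des, Mylk, Smtn and Synpo2). A strict CArG box (2 C, 6 of A or T, 2 G, the same on both strands) was in 0 of the 7 windows and in 1.63% of all 32851 windows. With 1 departure allowed in the core of 6, it was in 1 of the 7, that of Acta2, and in 9.98% of all windows. The windows are shown for Acta2, for Cnn1 as a gene with a very wide range between libraries, and for Synpo2 as the gene with the narrowest gap between the resveratrol libraries. Capitals mark the CArG-like matches, CCCTATATGG starting 84 bases before the Acta2 start site and CCTTGTTTGG starting 34 bases before it. A match or its absence here describes these letters only.
Acta2, chr19:34255324-34255623, minus strand: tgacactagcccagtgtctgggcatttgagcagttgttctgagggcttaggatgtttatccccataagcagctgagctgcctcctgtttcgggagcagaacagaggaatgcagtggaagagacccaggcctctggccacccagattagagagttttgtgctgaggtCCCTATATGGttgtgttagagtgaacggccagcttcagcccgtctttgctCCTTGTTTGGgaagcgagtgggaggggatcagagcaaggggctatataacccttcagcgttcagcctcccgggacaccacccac
Cnn1, chr9:22099003-22099302, plus strand: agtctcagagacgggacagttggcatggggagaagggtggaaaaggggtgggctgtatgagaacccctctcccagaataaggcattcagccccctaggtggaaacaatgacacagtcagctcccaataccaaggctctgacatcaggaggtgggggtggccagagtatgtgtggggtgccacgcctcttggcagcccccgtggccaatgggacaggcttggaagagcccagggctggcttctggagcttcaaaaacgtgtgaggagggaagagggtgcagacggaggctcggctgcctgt
Synpo2, chr3:123236100-123236399, minus strand: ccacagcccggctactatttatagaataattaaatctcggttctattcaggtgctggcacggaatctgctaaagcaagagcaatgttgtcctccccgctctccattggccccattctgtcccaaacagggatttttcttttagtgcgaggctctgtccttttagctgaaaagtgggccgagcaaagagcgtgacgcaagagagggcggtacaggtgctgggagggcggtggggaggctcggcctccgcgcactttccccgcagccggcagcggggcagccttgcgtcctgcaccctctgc

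Among the thin filament genes, Cnn1 shared its lowest libraries with Actg2 but not its place against control. Resveratrol library 1 was at 77.8 times the control level for Cnn1 and at 3.74 times for Actg2. Cnn1 (ENSMUSG00000001349), calponin 1, which binds actin and slows the myosin motor, was at 76.1 CPM in control, then 33.6 and 0.238 CPM in obesity, and 5925 and 0.817 CPM in the resveratrol libraries. Its promoter window, shown above, held no CArG-like match. Obesity library 2 and resveratrol library 2 were both below 1 CPM, at 5 and 21 counts, and the other libraries were well above. Lmod1 (ENSMUSG00000048096), a leiomodin that starts new actin filaments, was at 14.995 CPM in control, then 9.49 and 2.43 CPM in obesity, and 511 and 4.59 CPM in the resveratrol libraries. Lmod1 shared the order of Myh11, with resveratrol library 1 highest, then control, then obesity library 1.

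Smtn and Tagln differed from the genes above in where control lay. Smtn (ENSMUSG00000020439), smoothelin, an actin-binding protein of contractile smooth muscle, was at 36.4 CPM in control, then 64.2 and 41.4 CPM in obesity, and 1666 and 75.9 CPM in the resveratrol libraries. Tagln (ENSMUSG00000032085), transgelin, an actin-bundling protein also called SM22 alpha, was at 1.29 CPM in control, then 2.35 and 2.09 CPM in obesity, and 53.3 and 2.61 CPM in the resveratrol libraries. For both genes the control library was the lowest. Its 95% counting interval overlapped that of obesity library 2 for Tagln (0.908 to 1.78 against 1.52 to 2.81 CPM), and narrowly for Smtn. For both genes the resveratrol libraries were also above both obesity libraries, which by itself held for 16.9% of all tested genes. For Tagln this rested on 67 counts in resveratrol library 2 against 45 and 44 in obesity. Its interval of 2.02 to 3.31 CPM there overlapped that of obesity library 1, 1.71 to 3.14 CPM. None of the 10 had both resveratrol libraries below both obesity libraries, as 16.7% of tested genes did. The Tagln level is uncertain. In the GENCODE M21 models 62.4% of the exon bases of Tagln are also exon of Gm48529 on the opposite strand, and 5.43% are exon of Pcsk7. The strand setting of the counting is not given in the sources used here, and the part of this overlap in the low Tagln counts was not tested. Smtn also overlaps an opposite-strand gene, Gm11946, over 16.3% of its exon bases. For Des and Mylk no overlapping gene covered more than 5.86%.

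Des and Synpo2, which tie filaments to dense bodies and Z-disc-like structures, had unlike profiles. Des (ENSMUSG00000026208), desmin, the intermediate filament protein of all muscle, was at 97.5 CPM in control, then 59.4 and 25.9 CPM in obesity, and 4497 and 43.0 CPM in the resveratrol libraries. Synpo2 (ENSMUSG00000050315), synaptopodin 2, an actin-associated protein also called myopodin, was at 17.5 CPM in control, then 725 and 710 CPM in obesity, and 1627 and 665 CPM in the resveratrol libraries. Synpo2 was the lone gene of the 10 whose ratio between resveratrol libraries 1 and 2 was below 4, at 2.45 (exact 95% interval 2.40 to 2.49). It was also the lone gene with a control level far below every other library. In the 3 libraries rich in adipocyte markers it stayed between 665 and 725 CPM.

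Levels between genes can be compared per length, here as CPM per kilobase of exon in the GENCODE M21 models, which need not be the models the authors counted on. In resveratrol library 1 the order was Acta2 (4291), Actg2 (3089), Myh11 (2534), Cnn1 (2165), Des (1198), Mylk (711), Smtn (380), Lmod1 (130), Synpo2 (124) and Tagln (26.8 CPM per kilobase). In the control library Actg2 led at 825 CPM per kilobase, ahead of Acta2 at 241 and Myh11 at 39.4. In both obesity libraries and resveratrol library 2, Acta2 led, at 122 to 147 CPM per kilobase, and Synpo2 followed at 50.8 to 55.4. Actg2, the leading gene of the control library, was the last of the 10 in obesity library 2 and resveratrol library 2, at 0.0612 and 0.225 CPM per kilobase.

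The CPM ratio of a gene to Acta2 keeps the ratio of the lengths of the pair, so it is compared here between libraries and not between genes. Actg2 over Acta2 was 2.43 in control, 0.0627 and 0.000355 in the obesity pair, and 0.510 and 0.00125 in the resveratrol pair. Cnn1 over Acta2 ran the same way among the high-fat diet libraries, at 0.104 and 0.000888 in obesity and 0.629 and 0.00292 in the resveratrol libraries, with 0.144 in control. Myh11 over Acta2 was 0.566 in control, 0.426 and 0.0844 in obesity, and 2.04 and 0.124 in the resveratrol libraries. Mylk over Acta2 varied least, from 0.527 in control to 0.850 in resveratrol library 1. The control library and resveratrol library 1 were thus unlike in mix: Actg2 over Acta2 was highest in the former, and Myh11 over Acta2 in the latter.

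**Figure D2:**
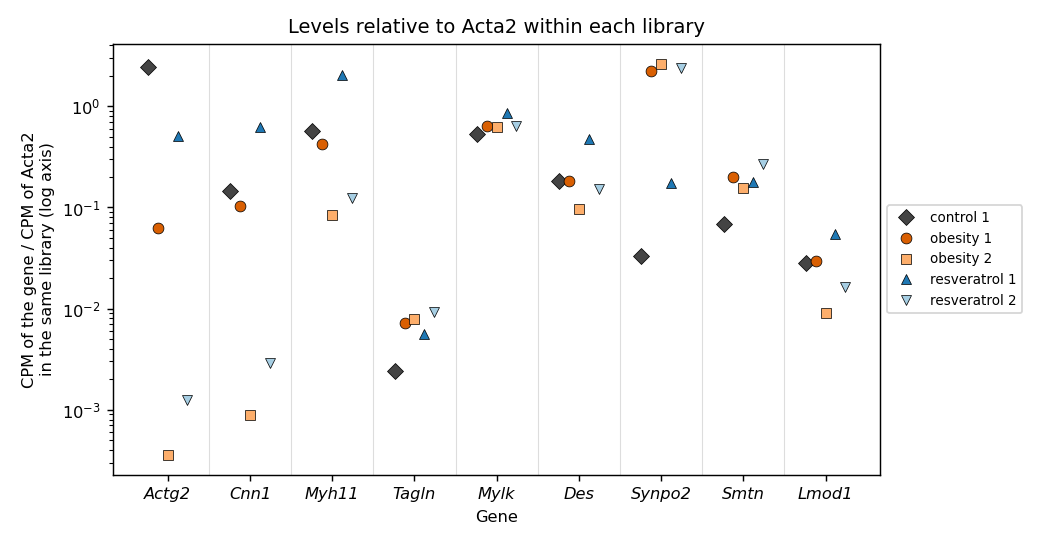
CPM of each gene divided by the CPM of Acta2 in the same library (log axis), for the 9 other genes; each point is a library. Mylk stays between 0.527 and 0.850 in all 5 libraries, while in obesity library 2 Actg2 is at 0.000355 and Cnn1 at 0.000888.

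The obesity libraries also differed from each other. Obesity library 1 was above obesity library 2 for all 10 genes, against 46.7% of all tested genes. In 3 of the 10 (Myh11, Cnn1 and Actg2) the ratio, taken after adding 0.5 CPM to each level, was at least 4, which held for 1.15% of tested genes. For Cnn1 the ratio of levels was 141 (exact 95% interval 60.3 to 437), and for Synpo2 it was 1.02 (0.998 to 1.05), so that the gap was wide for some of the genes and within counting error for Synpo2. For Tagln, at 45 and 44 counts, the interval of 0.723 to 1.74 covered no difference. Markers of urothelium, the lining of the urinary tract, moved with this gap: the 8 summed to 466 CPM in obesity library 1, against 10.2 CPM in obesity library 2, where 4 of them were at 0 counts. Upk2, a uroplakin that defines this lining, was at 43.5 CPM in the former and at 0 counts in the latter. Their part in the smooth muscle levels was not tested.

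Obesity was compared with control to ask what the high-fat diet did to visceral fat. In 7 of the 10 genes both obesity libraries were below the control library, as in 48.6% of tested genes. In 3 (Tagln, Smtn and Synpo2) both were above it, as in 40.8%. The fitted difference was positive for the same 3, against 46.9% of all tested genes. The median difference of the 10 was -1.02 on the log2 scale, against -0.10 over all tested genes. No gene passed: 0 of the 10 and 0% of tested genes had an adjusted p under 0.05 (edgeR's quasi-likelihood test with Benjamini-Hochberg adjustment). At an unadjusted p under 0.05 there was 1 of the 10, against 24.3% of tested genes. By DESeq2 1 of the 10 (Synpo2, higher) passed, against 21.6% of the genes it tested, or 12.8% counted as higher, and by limma-voom 0.

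Synpo2 had the smallest p of the 10 in this comparison. The obesity mean of 718 ± 10.7 CPM (SD, n = 2) stood against 17.5 CPM in control, which is a log2 difference of 5.36 with a standard error (SE) of 0.987 and an adjusted p of 0.176 in edgeR's test. Both obesity libraries were above the control library. Its adjusted p in edgeR's test was 6.73e-05 with resveratrol library 1 left out and 0.000149 with resveratrol library 2 left out, libraries that are no part of the comparison but set part of the spread, and it ran from 6.85e-11 to 0.559 over the alternatives. With resveratrol library 1 left out 37.9% of tested genes passed, and with resveratrol library 2 left out 37.3%. Actg2 had the widest difference, at -6.98 on the log2 scale with an SE of 4.62 and an adjusted p of 0.362 in edgeR's test, from 1284 CPM in control to 10.2 ± 14.2 CPM (SD, n = 2) in obesity. Without obesity library 1 the difference of Actg2 was -13.62 and that of Cnn1 moved from -2.17 to -8.27, and without obesity library 2 they were -5.98 and -1.17. Leaving out either obesity library also moved Myh11, from -1.90 to -3.71 or -1.12, and Lmod1, from -1.33 to -2.60 or -0.65. For Des the values were -1.19 with both, -1.89 without obesity library 1 and -0.71 without obesity library 2, and for Smtn they were 0.54, 0.21 and 0.82. For Acta2 the difference was -0.84 (SE 1.89, adjusted p = 0.784 in edgeR's test). It passed without resveratrol library 1 (edgeR adjusted p = 0.0313) and with only the groups compared (0.0311), in a range up to 0.968. In that last fit 39.4% of tested genes passed.

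Markers of another tissue moved with this comparison. The 12 markers of epididymal epithelium, the lining of the duct that stores sperm, reached a sum of 67196 CPM in control. In obesity libraries 1 and 2 it was 18.8 and 0.0952 CPM, and 1 and 11 of the 12 were at 0 counts. Gpx5, a glutathione peroxidase secreted there, was at 28097 CPM in control, then 10.96 CPM in obesity library 1 and 0 counts in obesity library 2. That duct has a muscular wall. The part of this tissue in the Actg2, Myh11 and Cnn1 levels of the control library was not tested, and with 1 control library it cannot be told apart from diet.

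Resveratrol was compared with obesity to ask what it did on the high-fat diet. All 10 genes had a positive log2 difference, where 52.8% of all tested genes did, with a median of 4.95 against 0.05 over all tested genes. Without resveratrol library 1, 3 of the 10 (Tagln, Des and Smtn) were positive and the median was -0.08. For 8 of the 10 genes the resveratrol and obesity libraries overlapped. In the other 2 (Tagln and Smtn) both resveratrol libraries were above both obesity libraries, as in 16.9% of tested genes. In 16.7% of tested genes both were below, and the rest overlapped. In edgeR's quasi-likelihood test 0 of the 10 and 0% of tested genes had an adjusted p under 0.05. At an unadjusted p under 0.05 there were 0 of the 10, against 2.34% of tested genes. By DESeq2, 2 of the 10 (Myh11 and Des, both higher) passed, against 1.28% of the genes it tested, or 1.16% counted as higher, and by limma-voom 0.

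Myh11 averaged 9646 ± 13592 CPM (SD, n = 2) with resveratrol and 80.0 ± 81.2 CPM in obesity, so that the SD exceeded the mean in both groups. Its log2 difference was 6.91 with an SE of 3.20 and an adjusted p of 0.899 in edgeR's test, and -1.19 without resveratrol library 1. Actg2 had a difference of 7.89 (SE 4.62) and Cnn1 one of 7.45 (SE 4.40). Without resveratrol library 1 these became -4.82 and -4.35. For Acta2, Mylk and Synpo2 the values without that library were -0.07, -0.03 and -0.10, close to no difference. Smtn had the smallest p of the 10, 0.0610 unadjusted, with 871 ± 1125 CPM (SD, n = 2) with resveratrol against 52.8 ± 16.2 CPM in obesity and an adjusted p of 0.899 in edgeR's test. Its difference was 4.04 (SE 1.58), and 0.54 without resveratrol library 1. With resveratrol library 2 left out instead, 6 of the 10 (Acta2, Tagln, Des, Mylk, Smtn and Synpo2) passed in edgeR's test, against 19.5% of tested genes in that fit, the lone resveratrol library 1 then being assumed to vary like the other groups.

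**Figure D3:**
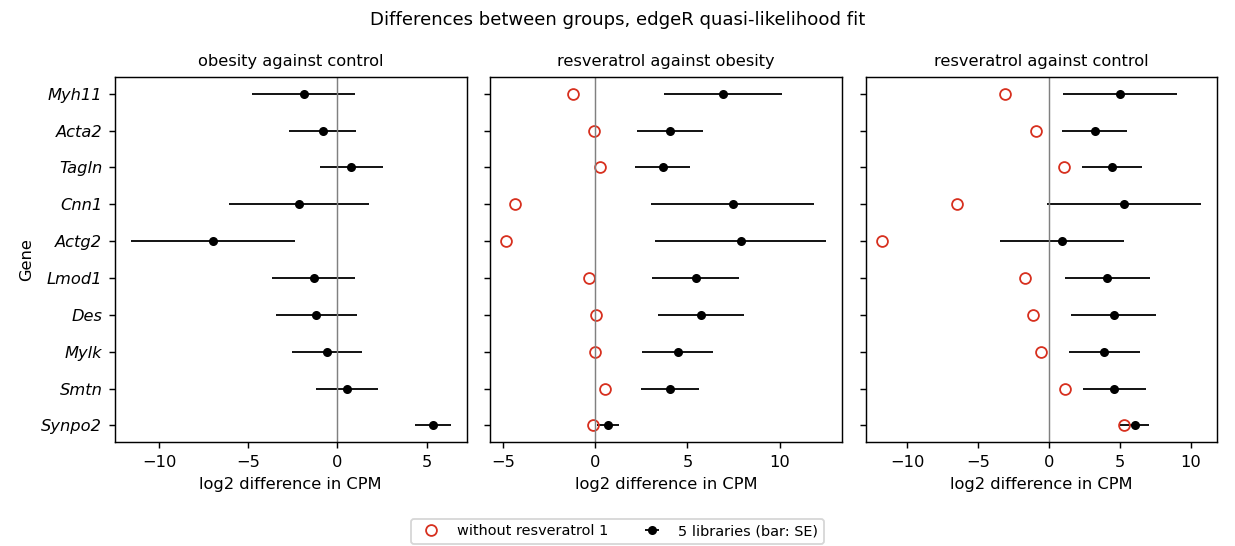
Log2 difference of each gene in the 3 comparisons, from edgeR's quasi-likelihood fit; filled points use all 5 libraries with bars of 1 SE, and open circles, drawn for the resveratrol comparisons, leave out resveratrol library 1. In resveratrol against obesity all 10 filled points are above 0 and 7 of the 10 open circles are below 0.

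The third comparison set the resveratrol group against the lean control, and shares its libraries with the comparisons above. All 10 genes had a positive difference, against 51.4% of all tested genes. In 3 (Tagln, Smtn and Synpo2) both resveratrol libraries were above the control library, as in 37.7% of tested genes, and in 0 were both below it, as in 41%. The median difference was 4.49 against 0.05 over all tested genes. Without resveratrol library 1, 3 of the 10 (Tagln, Smtn and Synpo2) were positive and the median was -1.02. In edgeR's quasi-likelihood test 0 of the 10 and 0% of tested genes passed, with 1 of the 10 and 18.5% of tested genes at an unadjusted p under 0.05. By DESeq2 3 of the 10 (Tagln, Smtn and Synpo2) passed as higher, against 15.4% of the genes it tested, or 10.3% counted as higher, and by limma-voom 0 of the 10, against 0.323%. Without resveratrol library 2, 6 of the 10 passed in edgeR's test, against 17.2% of tested genes in that fit. Synpo2 again had the smallest p, with a difference of 6.03 (SE 1.02, adjusted p = 0.206 in edgeR's test). The adjusted p of Synpo2 was 0.000118 without resveratrol library 1, where 30.7% of tested genes passed, and 7.66e-14 to 0.532 over the alternatives. For Actg2 the difference was 0.91 (SE 4.36), and -11.79 without resveratrol library 1.

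Other genes of the contractile apparatus were counted from lists drawn up by function. Of all tested genes 52.8% were higher in resveratrol than in obesity, the share to set beside each count below. Besides Myocd, the 2 genes named from each list had its highest mean CPM over the 5 libraries. That mean includes resveratrol library 1, so genes high there were favoured. Their values are examples and add no separate evidence for the pattern of that library. Of 10 genes of the thick filament and its light chain control, 7 were higher and 3 lower in resveratrol than in obesity, 0 passed, and the median log2 difference was 0.99. In 4 of them resveratrol library 1 was at least 4 times resveratrol library 2, against 6.32% of all tested genes. Myl9, the regulatory light chain of smooth muscle myosin, was at 195 CPM in control, then 87.5 and 29.5 CPM in obesity, and 3740 and 39.3 CPM in the resveratrol libraries. Ppp1r12b, a targeting subunit of the myosin phosphatase, was at 80.3, 75.0 and 32.7 CPM in control and obesity, and at 1885 and 43.6 CPM in the resveratrol libraries. Both followed the order of Myh11.

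Of 20 genes of the thin filament, cytoskeleton and adhesion, 18 were higher and 2 lower in resveratrol than in obesity and 0 passed, with a median of 2.19. In 13 of the 20 resveratrol library 1 was at least 4 times resveratrol library 2. Flna, filamin A, which crosslinks actin, was at 428 CPM in control, then 798 and 1020 CPM in obesity, and 9113 and 949 CPM in the resveratrol libraries. Csrp1, a LIM protein of smooth muscle, was at 128, 154 and 147 CPM in control and obesity, and at 5517 and 223 CPM in the resveratrol libraries. Of 11 tested genes of calcium handling and channels, 11 were higher in resveratrol than in obesity, against 52.8% of all tested genes. The median was 2.63, and 0 passed. In 8 of the 12 genes listed, resveratrol library 1 was at least 4 times resveratrol library 2, against 6.32% of all tested genes. Atp2a2, the calcium pump of the sarcoplasmic reticulum, was at 2007 CPM in resveratrol library 1 and at 156 to 232 CPM in the other 4 libraries. Atp2b4, a calcium pump of the cell surface, was at 575 CPM in resveratrol library 1, 356 CPM in control and 135 to 234 CPM in the other 3.

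Receptors and transcription factors were more mixed. Of 14 receptor and cyclic GMP genes, 13 were higher in resveratrol than in obesity and 0 passed, with a median of 2.05. In 5 of the 14 resveratrol library 1 was at least 4 times resveratrol library 2, and in 3 it was at most 1/4 of it. P2rx1, an ATP-gated ion channel, was at 1086 CPM in resveratrol library 1 and at 1.52 to 5.58 CPM in the other 4 libraries. Oxtr, the oxytocin receptor, lay the other way, at 15.7 CPM in resveratrol library 1 against 133 CPM in resveratrol library 2, while the obesity libraries held 233 and 250 CPM. Of 10 transcription factors, 6 were higher and 4 lower, 0 passed, and the median was 0.45. Srf, serum response factor itself, was at 31.7 CPM in control, then 59.3 and 63.4 CPM in obesity, and 130 and 61.7 CPM in the resveratrol libraries. Klf4, which represses contractile genes, was at 10.8 CPM in control, then 52.0 and 62.2 CPM in obesity, and 20.2 and 87.4 CPM in the resveratrol libraries. Its lowest level was thus in control and not in resveratrol library 1. Myocd, myocardin, was at 55.6 CPM in resveratrol library 1 and at 0.190 to 1.12 CPM in the other 4 libraries, a wider gap than that of its partner Srf.

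**Figure D4:**
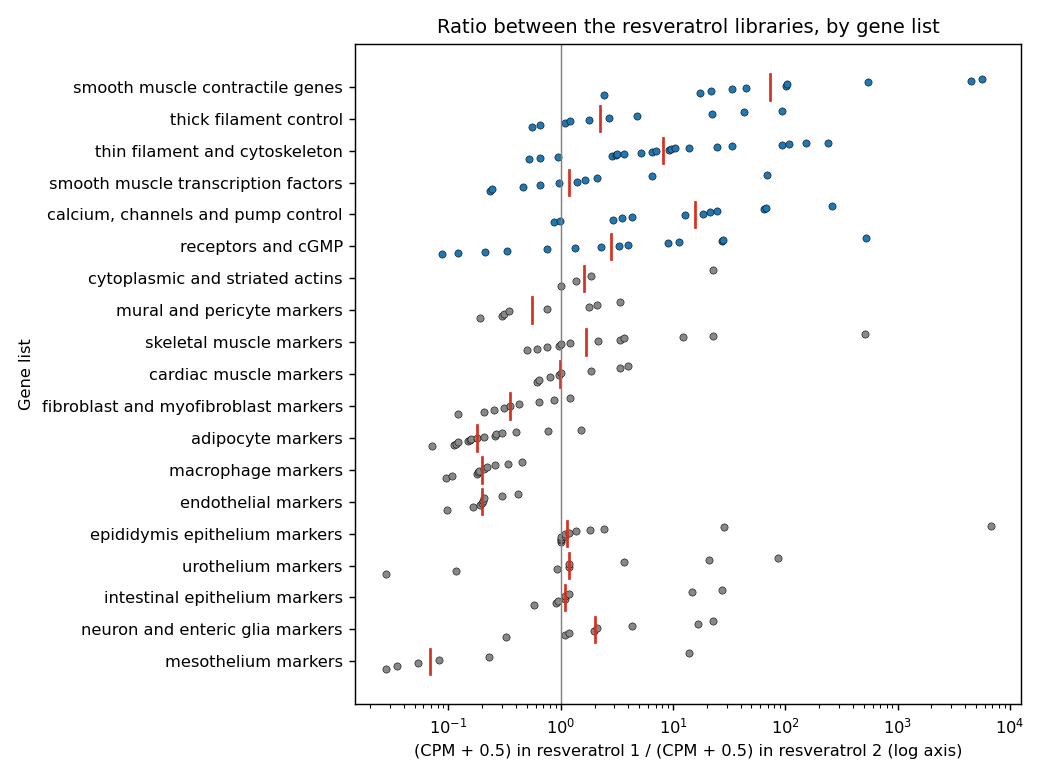
Ratio of resveratrol library 1 to resveratrol library 2 for each gene, after adding 0.5 CPM to each level (log axis), by gene list; points are genes, red bars are list medians, and blue marks the 10 genes described here and the other smooth muscle lists. The median ratio is 72.5 for the 10 genes, 15.7 for the calcium list and 8.12 for the thin filament list, and 0.180 for the adipocyte markers.

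Markers of other cell types were read in the same libraries. Adipocyte, macrophage and endothelial markers were mostly lower in resveratrol library 1 than in resveratrol library 2. With 0.5 CPM added, 9 of 15, 7 of 10 and 6 of 8 were at most 1/4 of their level in the latter. The share of all tested genes this low was not counted. Adipoq, the gene of the adipocyte hormone adiponectin, was at 266 CPM against 1699 CPM. Adgre1, a macrophage marker, was at 23.4 against 223 CPM, and Pecam1, an endothelial marker, at 49.5 against 249 CPM. In control these genes were lower still, at 14.2, 6.63 and 33.0 CPM. The macrophage sum was 158 CPM in control and 407 CPM in resveratrol library 1, and the endothelial sum 133 and 191 CPM. Mural and pericyte markers, which vessel walls carry, were mixed, with 3 of 8 higher in resveratrol library 1 than in resveratrol library 2. The 8 summed to 984 CPM in resveratrol library 1 and 1280 CPM in resveratrol library 2, to 857 and 931.5 CPM in obesity and to 183 CPM in control, and 0 of the 8 were at least 4 times higher in resveratrol library 1. The 9 fibroblast and myofibroblast markers summed to 1718 CPM in resveratrol library 1 and 4594 CPM in resveratrol library 2. Pdgfrb, a receptor that marks pericytes, was at 29.7 CPM in resveratrol library 1 and 156 CPM in resveratrol library 2. Kcnj8, a potassium channel subunit of pericytes, lay the other way at 116 against 33.8 CPM, as did Cspg4 at 149.6 against 70.8 CPM and Abcc9 at 83.0 against 46.6 CPM.

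Of the epididymal markers, 4 of 12 were at 0 counts in resveratrol library 1 and 11 of 12 in resveratrol library 2. The list summed to 3412 CPM in the former, of which Crisp1, a secretory protein of the male tract, made up 3397 CPM, and to 0.0778 CPM in the latter. Crisp1 was at 2460 CPM in control and at 0 counts in both obesity libraries. Urothelial markers summed to 62.3 CPM in resveratrol library 1 and 136 CPM in resveratrol library 2, of which Upk3b, also on the mesothelial list, gave 2.50 and 108 CPM. Of the 8, 5 were higher in resveratrol library 1, among them Krt5, a keratin of basal epithelial cells, at 42.9 CPM against 0 counts. Intestinal epithelial markers summed to 47.1 and 22.1 CPM, with 5 of 8 higher in resveratrol library 1 and 3 in resveratrol library 2. Of the 5, Cdx2 and Fabp2 rested on 1 and 2 counts in resveratrol library 1, and Lgals4 was at 22.8 against 19.1 CPM. Markers of neurons and enteric glia summed to 68.9 and 20.1 CPM. Upk2 was at 10.04 CPM in resveratrol library 1 and at 0 counts in resveratrol library 2, and Vil1, villin of the gut lining, at 0.4997 and 1.24 CPM. Cdh17, an intestinal cadherin, was at 14.3 and 0.0389 CPM, and Lgr5, a stem cell receptor, at 8.00 and 0.0778 CPM. Cdh17 was also at 5.02 CPM in control and, like Crisp1, at 0 counts in both obesity libraries. The part of other tissue in the smooth muscle levels of resveratrol library 1 was not tested. With 1 of 2 resveratrol libraries showing them, resveratrol and the tissue sampled cannot be told apart.

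**Figure D5:**
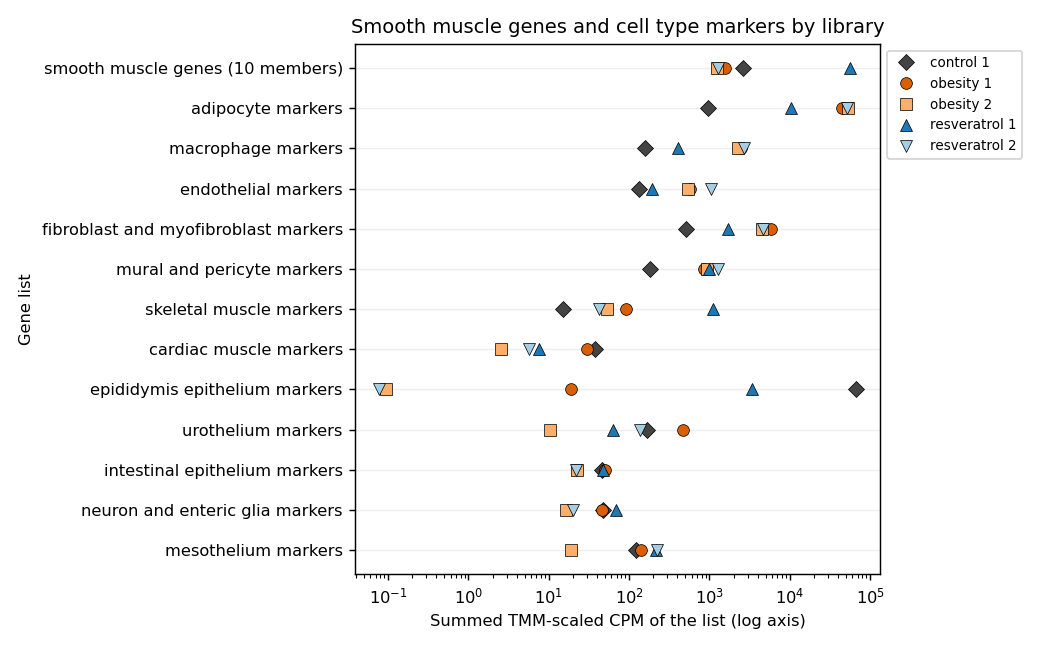
Summed TMM-scaled CPM (log axis) of the 10 smooth muscle genes and of each marker list, with a point for each library. The smooth muscle sum is 55780 CPM in resveratrol library 1 and 1239 to 2635 CPM in the other 4 libraries, and the epididymal sum is 67196 CPM in the control library.

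The genes most like the 10 were found by the root mean square distance, over the 5 libraries, between a gene's log2 CPM centred on its own mean and the median centred profile of the 10. Among the 10 themselves, Mylk, Des, Acta2 and Lmod1 were closest to that profile, at 0.342, 0.356, 0.452 and 0.455, and Synpo2, Cnn1 and Actg2 farthest, at 2.76, 3.06 and 4.31. Of 21369 other genes with a symbol, 136 were closer than the median of the 10, which was 0.817. The nearest were Stum at 0.143, Pgm5 at 0.249, Shank2 at 0.250, Cyp2b10 at 0.253, Ppp1r12b at 0.264, Slc8a2 at 0.287, AC127249.1 at 0.296, Chrm3 at 0.333, Fez1 at 0.333 and Kif5c at 0.344. Pgm5, a phosphoglucomutase relative found at muscle adhesion sites, was at 24.6 CPM in control, then 15.1 and 6.71 CPM in obesity, and 888 and 9.10 CPM in the resveratrol libraries. Chrm3, the muscarinic receptor through which acetylcholine contracts smooth muscle, was at 19.6 CPM in resveratrol library 1 and at 0.233 to 0.488 CPM in the other 4. Several of the nearest were sparse: AC127249.1 was at 7.00 CPM in resveratrol library 1 and at 0.244 CPM or less elsewhere. This likeness is a description over 5 libraries, and it is set mostly by resveratrol library 1.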

How the data were processed

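Stranded poly-A libraries were read from both ends, per the labels' protocols. The authors deposited raw counts per Ensembl gene from featureCounts on GRCm39, after FastQC, per the submitters' processing notes; the aligner, annotation release, strand setting and versions: not given in the sources used here. Of 78334 identifiers, 65.7% were given a symbol. Counts were analysed with edgeR 4.0.16 in R 4.3.3: filterByExpr (minimum count 10, minimum total 15), TMM, and quasi-likelihood fitting (robust) over the 5 libraries together, with Benjamini-Hochberg adjustment over 24779 genes at 0.05. Control has a single library, whose spread was taken to be that of the other groups. SE is the log2 difference over the square root of F. Alternatives used DESeq2 1.42.0 and limma 3.58.1. The fit was tested on data simulated with 1 spread shared by all genes. That does not show how it handles libraries as unlike as the resveratrol pair. Profile distances used log2 CPM with a prior count of 2. The members, lists and tests were chosen with earlier results of these data known. Named genes were the 10 members, the 2 genes with the highest mean CPM of each smooth muscle list, fixed marker genes, and the 10 genes of nearest profile. Overlapping genes were chosen for being on the members' exons. Kcnj8, Cspg4, Abcc9, Upk3b, Krt5, Cdh17, Lgr5, Cdx2, Fabp2 and Lgals4 were chosen after their values were seen. Only intervals of counting error are given for single libraries. Figures were drawn with matplotlib 3.10.9.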

Additional observations from a re-analysis of the deposited data

How the results depend on the processing

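Under median-ratio size factors and under total counts with no TMM factor, each of the 10 genes kept its direction in each comparison and 0 genes passed, although total counts moved the median of all genes in obesity against control by -0.12 on the log2 scale. Of 350 values of single genes under the alternatives, 295 kept their direction and their side of the threshold, 26 newly passed and 29 changed direction.

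With no filter on low counts, edgeR called 2575 genes in obesity against control, 25 for resveratrol against obesity and 1671 for the resveratrol group against control, and DESeq2 called 4524, 219 and 3085. Limma-voom called 80 in resveratrol against control, where Cnn1 turned to -0.13 and Actg2 to -5.02. With only the groups compared, 9269 genes were called in obesity against control. The cause of these changes was not tested.

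Replicate numbers pair libraries by number only, and the deviations of same-numbered libraries correlated at 0.282 across genes over 2 pairs. With the replicate block, 9 of the 10 genes were higher in obesity than in control, with Myh11 at 1.27, Acta2 at 0.94, Cnn1 at 0.24, Lmod1 at 0.95, Des at 1.23 and Mylk at 1.36, a median of 1.25 over the 10, and the count of called genes still 0.

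Leaving out a library in turn gave 0 to 9227 called genes in obesity against control, 0 to 4758 for resveratrol against obesity, and 0 to 7469 for the resveratrol group against control. Without resveratrol library 1 the counts were 9227, 33 and 7469, without resveratrol library 2 they were 9094, 4758 and 4199, and without either obesity library they were 0. With a resveratrol library left out, resveratrol against control set 1 library against 1, and the spread came from the obesity pair alone. The count of genes higher among the 10 ran from 3 to 10 in both resveratrol comparisons. In resveratrol against obesity the ranges were -1.19 to 8.74 for Myh11, -0.0666 to 5.00 for Acta2, -4.35 to 13.58 for Cnn1, -4.82 to 14.56 for Actg2, -0.36 to 6.74 for Lmod1, -0.0295 to 5.44 for Mylk and -0.10 to 1.19 for Synpo2. In resveratrol against control they were -3.08 to 6.03 for Myh11, -0.89 to 4.18 for Acta2, -6.51 to 6.31 for Cnn1, -11.79 to 1.93 for Actg2, -1.68 to 5.12 for Lmod1, -1.15 to 5.55 for Des and -0.60 to 4.87 for Mylk. Leaving out control 1 and resveratrol 1 together, chosen after seeing the data, gave 66 called genes and 3 of the 10 higher in resveratrol against obesity, with Myh11 at -1.19, Acta2 at -0.0683, Cnn1 at -4.36, Actg2 at -4.83, Lmod1 at -0.37, Mylk at -0.0313 and Synpo2 at -0.10. The control library could not be left out of its own comparisons. Depth limits Actg2 and Cnn1 most, which rested on 2 and 5 counts in obesity library 2.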

Other observations

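Skeletal and cardiac muscle markers were read beside the smooth muscle genes, since Des marks every kind of muscle. The 12 skeletal muscle markers summed to 1094 CPM in resveratrol library 1 and to 15.2 to 92.3 CPM in the other 4 libraries. Most of that sum came from Acta1, the actin of skeletal muscle, at 810 CPM, and Ckm, muscle creatine kinase, at 255 CPM. The skeletal myosin heavy chains Myh1, Myh2 and Myh4 were at 1, 0 and 0 counts in that library. The 8 cardiac markers summed to 7.496 CPM there. They summed to 37.5 CPM in control, 29.6 and 2.52 CPM in obesity and 5.60 CPM in resveratrol library 2. Myh6, the cardiac alpha myosin heavy chain, was at 1.59 CPM in resveratrol library 1 and 4.43 CPM in obesity library 1. Ckm was at 5604 counts in resveratrol library 1 and at 0 counts in obesity library 2 and resveratrol library 2. Ckm, Actb and the skeletal myosin heavy chains were named after their values were seen.

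Acta1 was not confined to resveratrol library 1. It was at 83.6 and 50.2 CPM in obesity and 35.0 CPM in resveratrol library 2, against 3.66 CPM in control, an order shared with Synpo2. The longest Acta1 transcript shared identical runs of 77 bases with that of Actb and 59 with that of Actg1. Whether reads of those genes were counted as Acta1 was not tested. The cytoplasmic actins, which all cells use, varied less: Actb was at 1037 CPM in control, then 3774 and 3382 CPM in obesity, and 4163 and 3073 CPM in the resveratrol libraries.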
